A study of Arabidopsis with 9 samples.

Results

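A set of 30 loci in the Arabidopsis seedling table were near-silent in the wild type (WT) and expressed in both mutant conditions. They were chosen on their measured values, as nuclear loci under 0.5 FPKM in WT and at 2 FPKM or more in both syd-5 and 310-3d. FPKM is a fragment count scaled to transcript length and sequencing depth. The rule took 30 of 31543 nuclear loci, out of 31747 loci in the table. Total RNA of 14-day-old whole seedlings grown in long days was sequenced, with 3 biological replicates for each of WT, syd-5 and swi3d-1 and no treatment. The authors' table gives 1 pooled value per locus for WT, for syd-5 and for a condition named 310-3d, which matches no label of the 9 samples. Its values are given here under that name, and whether it is swi3d-1 is not stated in the table.

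SYD provides the ATPase motor, and SWI3D a scaffold part, of SWI/SNF complexes. These complexes use ATP to move or evict nucleosomes and so change which stretches of DNA are accessible. Such complexes are known for activating genes, often against Polycomb repression, and also for keeping some genes off. Genes that are silent in an unstressed seedling are of many kinds. They include transposons and genes held by DNA methylation, genes of other organs or life stages, and genes that wait for a stress, a pathogen or a hormone.

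The targeted genes were at different levels in the 3 conditions. SYD was measured at 23.1 (WT), 4.11 (syd-5) and 24.3 FPKM (310-3d), and SWI3D (AT4G34430, CHB3 in RefSeq) at 16.4, 16.01 and 3.81 FPKM. SYD was thus low in syd-5 and SWI3D low in 310-3d. Neither replicate values nor sequencing depth are in the table. No spread between replicates, interval from replicates or detection floor could therefore be computed. In whole seedlings, more cells of a type and more RNA per cell cannot be told apart.

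Expression was gained at few of the silent loci. In WT 12841 nuclear loci, or 40.7%, were under 0.5 FPKM. Of these, 52 (0.405%) reached 2 FPKM in syd-5, 57 (0.444%) in 310-3d and 30 (0.234%) in both, while 12049 (93.8%) stayed under 0.5 FPKM in both. A further 22 loci reached the limit in syd-5 alone and 27 in 310-3d alone. With the conditions exchanged, 4 loci were under 0.5 FPKM in syd-5 and at 2 or more in WT and 310-3d, and 3 were so in 310-3d. The reverse count, of loci at 2 FPKM or more in WT and under 0.5 in both mutant conditions, was 32. Both mutant conditions are set against the same WT value, so a low WT value places a locus on the side of gain in both.

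**Figure D1:**
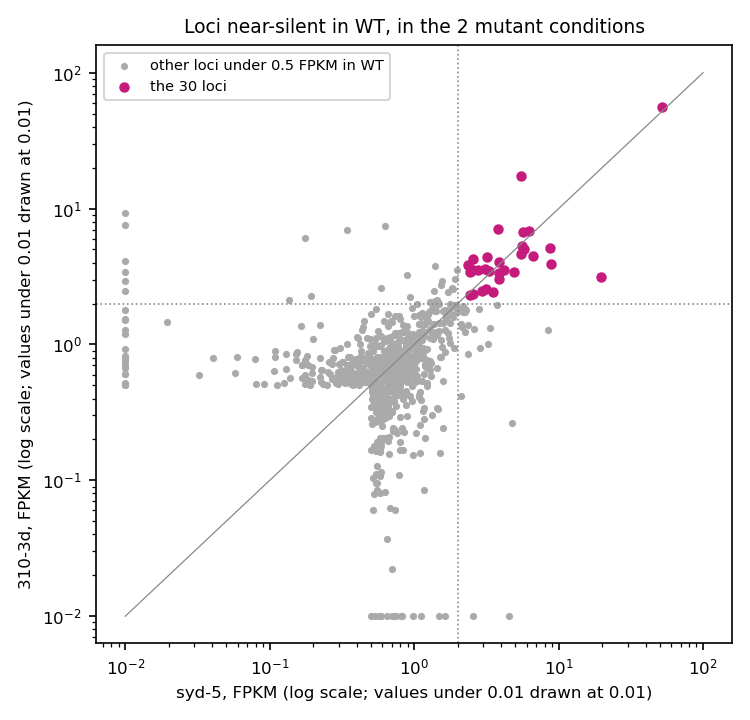
FPKM in syd-5 (x axis) and 310-3d (y axis), both on log scales, for the 792 loci under 0.5 FPKM in WT that reached 0.5 FPKM in at least 1 mutant condition. The 30 loci lie right of and above the dotted lines at 2 FPKM, with the unnamed locus farthest out (52.3 and 55.7 FPKM). Among the 30, HSP17.6A lies toward the right (19.7 and 3.15 FPKM) and AT2G44130 toward the top (5.52 and 17.5 FPKM).

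The gained levels were low. Across the 30 loci the WT values ran from 0 to 0.492 FPKM with a median of 0.302. The syd-5 values ran from 2.34 to 52.3 FPKM with a median of 3.86, and the 310-3d values from 2.299 to 55.7 with a median of 3.71. All loci at 2 FPKM or more had medians of 17.2 FPKM in syd-5 (16598 loci) and 17.2 in 310-3d (16512 loci), so the gained loci were expressed weakly. In syd-5 19 of the 30 and in 310-3d 22 were under 5 FPKM. WT listed 4 loci at 0, and 12 had WT values above 0.4 FPKM, close to the limit. Among the 26 loci above 0 in WT, the ratio to WT ran from 4.88 to 527 in syd-5 with a median of 11.3, and from 4.76 to 562 in 310-3d with a median of 11.2. The rule fixes the direction of these ratios.

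The ratios of the 30 loci had wide implied errors. The standard error of a log2 ratio, taken as the ratio over the authors' test statistic, had a median of 1.29 over the 26 loci in each of syd-5 and 310-3d. It was 0.302 over all tested nuclear loci in each. Of the 19030 loci tested in both comparisons only 389 were under 0.5 FPKM in WT, so the sets are unlike. The authors' calls do not follow from these errors alone. The unnamed locus had a log2 ratio of 9.04 in syd-5 and an implied error of 2.40, yet q = 0.314 (authors' deposited table). In the authors' deposited table, a total of 18 of the 30 loci were called higher in syd-5 at q under 0.05, against 13.6% of all tested loci called higher. In 310-3d the table called 16 of the 30, against a background of 13.4%. Both comparisons called 16, against 10.9% of all tested loci and 27.2% of tested loci under 0.5 FPKM in WT. The rule used the same contrasts, so nothing is read from these counts. The 2 loci called in syd-5 alone were AT2G17850 and AT5G24640, 11 tested loci were called in neither comparison, and AT3G49551 was not tested.

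**Figure D2:**
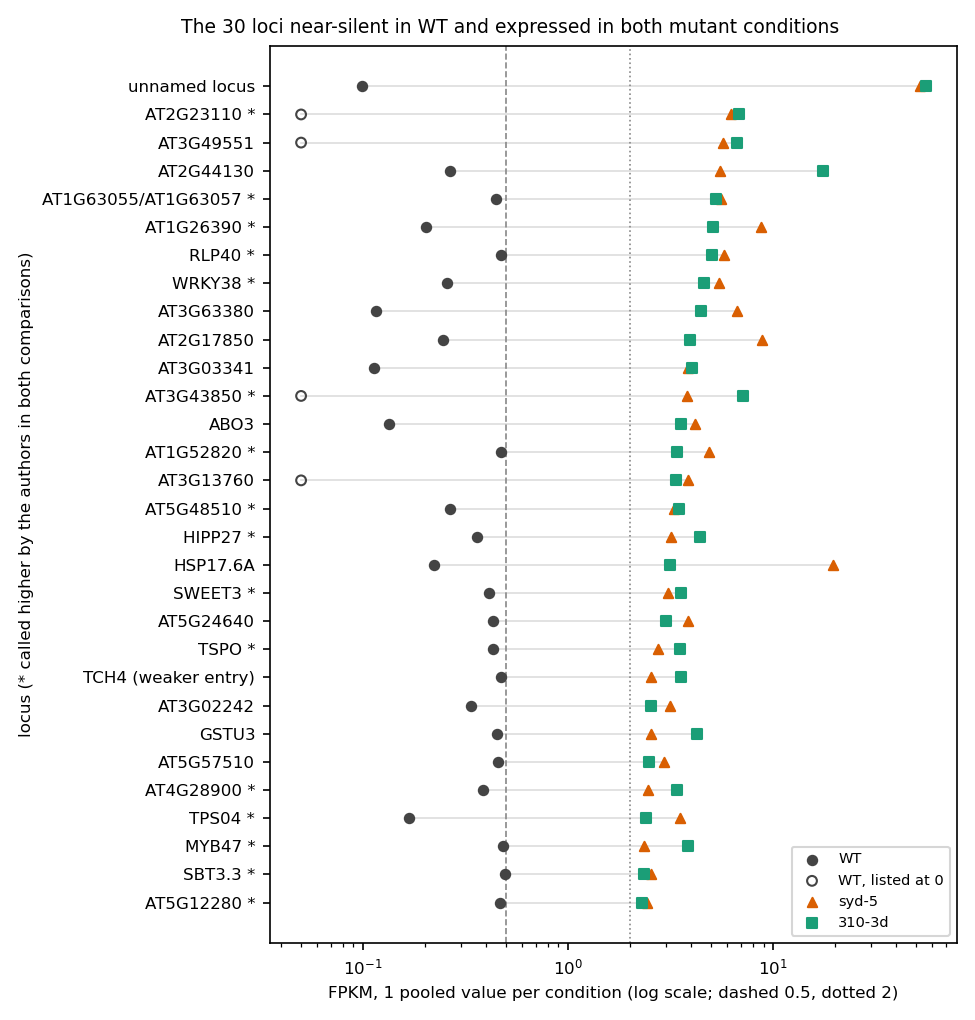
FPKM (log x axis) of each of the 30 loci in WT, syd-5 and 310-3d, ordered by the lower of the mutant values, with open circles for loci listed at 0 in WT and asterisks for the 16 loci the authors called higher in both comparisons. The WT points lie left of the dashed line at 0.5 FPKM and the mutant points right of the dotted line at 2 FPKM, as the rule requires.

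Several of the gained genes are known for roles in immunity and in defence against pathogens and herbivores. AT1G26390, RLP40 and GSTU3 are placed with them by family alone. WRKY38 (AT5G22570, chromosome 5, 7495539 to 7496784, TAIR10) encodes a transcription factor known as a negative regulator of basal defence. It stood at 0.257 in WT, 5.46 in syd-5 and 4.63 FPKM in 310-3d, ratios of 21.2 and 18.0, with log2 ratios of 4.41 and 4.17 and implied standard errors of 0.953 and 0.961 (q = 0.00106 in both, authors' deposited table). SBT3.3 (AT1G32960, chromosome 1, 11945307 to 11948650), a subtilisin-like protease gene known for immune priming, stood at 0.492, 2.55 and 2.34 FPKM (q = 0.000567 in both, authors' deposited table). Both genes had similar levels in the 2 mutant conditions. TPS04 (AT1G61120, chromosome 1, 22523637 to 22528817) encodes geranyllinalool synthase, which starts the synthesis of a volatile homoterpene released on herbivory. Its values were 0.167 in WT, 3.52 in syd-5 and 2.41 FPKM in 310-3d (q = 0.000567 in both, authors' deposited table). AT1G26390 (chromosome 1, 9130017 to 9131779), of the berberine bridge enzyme-like family of oxidases, stood at 0.204, 8.77 and 5.11 FPKM. With ratios of 43.0 and 25.1 it had the largest ratio to WT in each condition among the loci that were above 0 in WT and called in both comparisons (q = 0.000567 in both, authors' deposited table). RLP40 (AT3G24982), a receptor-like protein gene, stood at 0.473, 5.79 and 5.04 FPKM (q = 0.00942 and 0.0112, authors' deposited table). The name RLP40 also belongs to a merged entry over the same span, at 16.5 in WT, 16.1 in syd-5 and 19.5 FPKM in 310-3d, which did not pass the threshold (q = 0.961 and 0.713, authors' deposited table). Reads of the RLP40 entries and of the neighbouring paralogue RLP41 may have been divided between them, so the value is uncertain. GSTU3 (AT2G29470), a tau-class glutathione S-transferase gene, stood at 0.450, 2.53 and 4.28 FPKM. It was not called (q = 0.475 and 0.471, authors' deposited table), and its span is shared by its paralogues GSTU4, GSTU2 and GSTU1, whose merged entry went from 84.0 FPKM in WT to 59.0 and 47.2.

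Genes for transcription factors and other regulators made up a further part. MYB47 (AT1G18710, chromosome 1, 6450594 to 6453207), a transcription factor gene of the MYB family, stood at 0.481 in WT, 2.34 in syd-5 and 3.85 FPKM in 310-3d (q = 0.000567 in both, authors' deposited table). ABO3 (AT1G66600), also called WRKY63 and known for a part in the abscisic acid response, stood at 0.134, 4.16 and 3.55 FPKM. Its ratios of 31.0 and 26.5 did not pass the threshold (q = 0.0657 in both, authors' deposited table). MYB47, WRKY38 and ABO3 were the 3 of 30 loci whose RefSeq names contain a transcription factor word, against 2.17% of all nuclear loci. Most of the 30, 23 loci (76.7%), matched no class word, against 72.0% of all nuclear loci. None matched the words for transporters (1.33% of all) or for defence peptides and PR proteins (0.552%). The words thus missed SWEET3, a sugar transporter gene. These classes were counted without a test. AT5G48510, a gene for a BTB/POZ domain protein, stood at 0.265, 3.31 and 3.48 FPKM (q = 0.0134 and 0.0120, authors' deposited table). AT2G44130, or KMD3, encodes an F-box protein of the KISS ME DEADLY family, which targets cytokinin response regulators and phenylpropanoid enzymes for degradation. It stood at 0.267 in WT, 5.52 in syd-5 and 17.5 FPKM in 310-3d, with implied standard errors of 2.92 and 2.75 on the log2 ratio (q = 0.333 and 0.269, authors' deposited table). It shares its span with AT2G44140, which stood at 16.2, 16.8 and 17.45 FPKM and was not called (q = 0.878 and 0.678, authors' deposited table).

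Some gained genes are known from heat, drought or abscisic acid responses. AT2G17850 is listed with them without a stated role in these responses. HSP17.6A (AT5G12030, chromosome 5, 3884107 to 3884737), a small heat shock protein gene, stood at 0.222 in WT, 19.7 in syd-5 and 3.15 FPKM in 310-3d. The ratios to WT were 89.1 and 14.2, just outside the threshold (q = 0.0508 and 0.0511, authors' deposited table). It was the most unequal of the 30 between the mutant conditions, 6.27 times as high in syd-5 as in 310-3d. TSPO (AT2G47770, chromosome 2, 19568464 to 19569507) encodes a membrane protein known to be induced by abscisic acid and osmotic stress. Its values were 0.430, 2.76 and 3.53 FPKM (q = 0.00151 and 0.000567, authors' deposited table). AT2G23110 (chromosome 2, 9840456 to 9841366) belongs to a small family of late embryogenesis abundant proteins, thought to protect cells during drying. It was listed at 0 in WT and stood at 6.27 FPKM in syd-5 and 6.85 in 310-3d (q = 0.000567 in both, authors' deposited table). AT2G17850, for a rhodanese-like protein, stood at 0.247, 8.84 and 3.94 FPKM and was called in syd-5 (q = 0.0401) but not in 310-3d (q = 0.0602) in the authors' deposited table. These q-values lie either side of the threshold, and the difference between the conditions was not tested.

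Other gained genes are known from transport, metabolism and the cell wall. SWEET3 (AT5G53190, chromosome 5, 21572163 to 21574517), of the SWEET family of sugar transporters, stood at 0.411 in WT, 3.07 in syd-5 and 3.57 FPKM in 310-3d (q = 0.00151 and 0.000567, authors' deposited table). HIPP27 (AT5G66110), for a heavy metal-associated isoprenylated protein, stood at 0.361, 3.18 and 4.41 FPKM (q = 0.00629 and 0.00314, authors' deposited table). AT3G63380, or ACA12, encodes an autoinhibited calcium pump of the ATPase type. Its 0.116, 6.68 and 4.46 FPKM gave ratios of 57.7 and 38.6 that were not called (q = 0.117 and 0.136, authors' deposited table), and it shares its span with the merged entry of OTP86 and MIR167b at 4.82 in WT, 4.46 in syd-5 and 4.33 FPKM in 310-3d. AT1G52820, of the 2-oxoglutarate-dependent oxygenase family, stood at 0.470, 4.90 and 3.39 FPKM (q = 0.000567 in both, authors' deposited table). It shares its span with AT1G52825, at 7.23, 7.24 and 9.57 FPKM. The cell wall enzyme gene TCH4 (AT5G57560), for a xyloglucan endotransglucosylase, has 2 entries over the same span in the table. The weaker entry is among the 30, at 0.473, 2.55 and 3.55 FPKM (q = 0.427 and 0.180, authors' deposited table), while the stronger entry stood at 19.2, 223 and 352 FPKM. TCH4 was therefore not silent in WT, and its place among the gained loci belongs to the weaker entry alone. Whether the entries lie on opposite strands is not given.

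The remaining loci have no well-known role or no name. AT3G43850 (chromosome 3, 15702085 to 15704284) was listed at 0 in WT and stood at 3.83 FPKM in syd-5 and 7.13 in 310-3d (q = 0.000567 in both, authors' deposited table). AT1G63055 and AT1G63057, merged in 1 entry, stood at 0.445, 5.57 and 5.26 FPKM (q = 0.0153 and 0.0168, authors' deposited table). AT5G12280 stood at 0.467, 2.43 and 2.299 FPKM (q = 0.000567 in both, authors' deposited table). All 3 of these entries were called in both comparisons. AT4G28900 (chromosome 4, 14259141 to 14263794), the 1 pseudogene of the set, stood at 0.387, 2.45 and 3.42 FPKM. Its log2 ratios of 2.66 and 3.15 had implied standard errors of 0.450 and 0.441, the smallest of the 26 (q = 0.000567 in both, authors' deposited table). AT5G24640 stood at 0.429, 3.87 and 3.01 FPKM (q = 0.0430 and 0.0597, authors' deposited table). The peptide gene AT3G02242, or GOLVEN 8, stood at 0.336, 3.15 and 2.54 FPKM without a call (q = 0.380 in both, authors' deposited table). AT5G57510 stood at 0.456, 2.93 and 2.49 FPKM (q = 0.129 and 0.153) and AT3G03341 at 0.114, 3.86 and 4.03 FPKM (q = 0.472 in both) in the authors' deposited table. The last 3 genes are short, and the size of their change is known poorly. AT3G13760, listed at 0 in WT, stood at 3.87 and 3.37 FPKM in the mutant conditions (q = 0.288 in both, authors' deposited table). Its span also holds TMN7, at 47.1, 52.2 and 50.9 FPKM. AT3G49551, also listed at 0 in WT, stood at 5.70 and 6.68 FPKM, was not tested, and shares its span with AT3G49550.

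An unnamed locus had the highest mutant values of the 30. It lies on chromosome 1 from 28515305 to 28515907 and stood at 0.0991 in WT, 52.3 in syd-5 and 55.7 FPKM in 310-3d. The log2 ratios of 9.04 and 9.13 had implied standard errors of 2.40 and 2.40 and did not pass the threshold (q = 0.314 in both, authors' deposited table). No other locus of the set exceeded 19.7 FPKM in syd-5 or 17.5 in 310-3d. The entry that follows it on the chromosome, SKP1, stood at 354 in WT, 341 in syd-5 and 330.1 FPKM in 310-3d.

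The values of the 30 loci in the mutant conditions are set side by side as a description, since the rule removed loci that reached 2 FPKM in 1 condition alone, and nothing is read from their likeness. In 23 the values were within 1.5 times of each other, 16 were higher in syd-5 and 14 in 310-3d, and the median ratio of 310-3d to syd-5 was 0.944. More than 2 times apart were HSP17.6A (6.27 times as high in syd-5), AT2G17850 (2.25 times as high in syd-5) and AT2G44130 (3.16 times as high in 310-3d). The other loci that differed most were AT1G26390 and ACA12, higher in syd-5 by 1.72 and 1.497 times. TPS04, at 1.46 times, followed. Higher in 310-3d were AT3G43850 (1.86 times), GSTU3 (1.69 times) and MYB47 (1.64 times). With 1 pooled value per condition these ratios have no replicate check and were not tested.

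Genes of other organs, life stages and stress responses were examined in 9 lists of 91 candidate genes. Of these, 63 were under 0.5 FPKM in WT, and 48 of the 63 (76.2%) stayed under 0.5 FPKM in both mutant conditions, against 93.8% of all silent nuclear loci. HSP17.6A was the 1 listed gene among the 30 loci. Of 17 silent seed maturation genes, CRU1, a seed storage protein gene, reached 2 FPKM in 310-3d (0.110 in WT, 0.588 in syd-5 and 2.60 in 310-3d) and no other gene did in either condition. It was called higher in both comparisons (q = 0.0184 and 0.000567, authors' deposited table). The highest of 9 silent floral identity genes was AP3, which specifies petals and stamens, at 0.0805, 1.08 and 1.41 FPKM. Of 13 silent anther and pollen genes 12 stayed under 0.5 FPKM, and the exception, GRP19, stood at 0.156, 0.901 and 0.856. The 9 silent genes known for DNA methylation or imprinting, FWA and SDC among them, were at most at 0.175 FPKM in syd-5 and 0.162 in 310-3d. The 2 silent shoot homeobox genes were listed at 0 in all 3 conditions, and the 3 cold factors CBF1, CBF2 and CBF3 stayed under 0.5 FPKM. Of 5 silent small heat shock genes, HSP21 (0.175, 0.248 and 0.213 FPKM) and HSP22 (0.0274, 0.144 and 0.213 FPKM) stayed under 0.5 FPKM. HSP17.4 stood at 0.248, 8.48 and 1.27 FPKM (q = 0.304 and 0.507) and HSP17.6C at 0.0945, 1.43 and 0.674 FPKM (q = 0.300 and 0.303) in the authors' deposited table, neither of them called. In the senescence list, SAG12 stood at 0 in WT, 1.19 FPKM in syd-5 and 0.205 in 310-3d, and SAG29 at 0.198, 0.691 and 1.49. The authors' deposited table called SAG12 higher in syd-5 (q = 0.000567). It called SAG29 higher in 310-3d (q = 0.00424) but not in syd-5 (q = 0.0620). For SAG12 in 310-3d a missing test and a negative call cannot be told apart here. The silent defence genes THI2.1, PDF1.1 and JAZ8 stayed below 2 FPKM, with JAZ8 the highest at 0, 0.451 and 1.48 FPKM. JAZ8 was called higher in 310-3d (q = 0.000567, authors' deposited table). For JAZ8 in syd-5, too, a missing test and a negative call cannot be told apart.

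**Figure D3:**
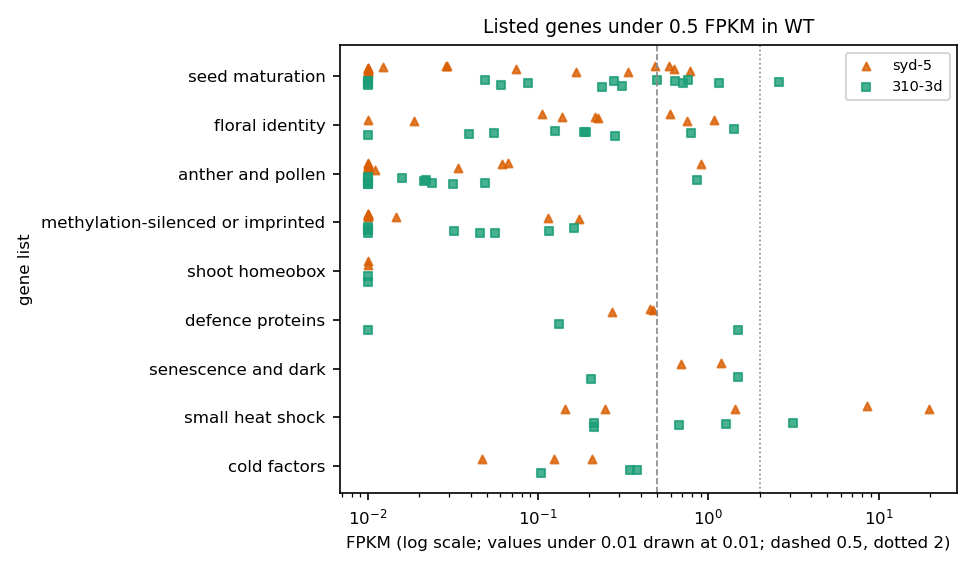
FPKM (log x axis) in syd-5 and 310-3d of the 63 listed genes that were under 0.5 FPKM in WT, by gene list. The points lie mostly left of the dashed line at 0.5 FPKM; those right of the dotted line at 2 FPKM are HSP17.6A in both conditions, HSP17.4 in syd-5 and CRU1 in 310-3d.

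The gained loci were mostly protein-coding genes of the chromosome arms. RefSeq lists genes of 28 of the 30 as protein-coding, AT4G28900 as a pseudogene, and the unnamed locus has no entry. Protein-coding genes were 78.7% of all nuclear loci and 96.2% of the 17153 that reached 2 FPKM in any condition, and no locus of the set was a long non-coding RNA. The 30 loci lay on chromosome 1 (8), 2 (5), 3 (7), 4 (1) and 5 (9). Chromosome 4 held 3.33% of them and 15.4% of all nuclear loci. Within 3 Mb of a centromere lay 1 of the 30 (3.33%, exact binomial 95% interval 0.0844 to 17.2%, counting error only), AT3G43850. The share was 21.6% of all nuclear loci, 40.6% of loci under 0.5 FPKM in WT and 8.46% of loci that reached 2 FPKM in any condition. The pericentromeric share of the 30 lay nearer to that of loci that reached 2 FPKM than to that of silent loci. By the rule all 30 belong to both of these sets, and the share rests on 1 locus. It was not tested, and nothing is read from this likeness. The spans of the 30 had a median of 2036 bp against 3174 bp for loci that reached 2 FPKM, and 7 (23.3%) were under 1 kb against 6.74%.

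Where entries overlap, the authors' locus spans cover several entries, and without strand the reads of overlapping genes cannot be told apart. Of the 30, 9 share their span with another entry, against 24.4% of all nuclear loci and 33.5% of those that reached 2 FPKM. In 8 of these 9 a partner stood at 2 FPKM or more in WT. The authors called 14 of the 21 loci that share no span in both comparisons, against 13.5% of all tested entries of that kind and 38.1% of those under 0.5 FPKM in WT. They called 2 of the 9 that share one, RLP40 and AT1G52820, against 5.77% and 5.43%. The rule used these contrasts, so nothing is read from the counts.

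The 30 loci were scattered singly, and some lay beside other genes called higher, or called lower, in both comparisons. None was next to another, and the closest, AT5G57510 and TCH4, were 17.5 kb apart. Of 58 tested entries that flank the 30 loci, the authors called 11 (19.0%) higher in both comparisons, against 10.9% of all tested loci. They called 6 (10.3%) lower in both, against 11.2%. The tested flanking entries had median log2 fold changes, on the scale of log2(FPKM + 1), of 0.13 in syd-5 and 0.09 in 310-3d. The median over all nuclear loci, tested or not, was 0 in each, so the sets are unlike. Over loci with at least 1 FPKM it was 0.0099 in syd-5 and -0.0145 in 310-3d. The difference was not tested. The 30 loci had medians of 2.06 and 1.92, whose direction the rule fixes.

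AT2G23110 lay among genes called higher in both comparisons. On its left, 645 bp away, the merged entry of P4H13, a prolyl hydroxylase gene, and AT2G23100 went from 1.45 in WT to 7.23 in syd-5 and 8.09 FPKM in 310-3d. On its right, 214 bp away, AT2G23120, of the same late embryogenesis abundant family, went from 124 FPKM to 189.7 and 215. Next came AGP17, an arabinogalactan protein gene, at 16.4, 106 and 115 FPKM. All 3 of these entries were called higher in both comparisons (q = 0.000567 in each, authors' deposited table). AT2G23118, which overlaps AT2G23120, was not called and stood at 0.371, 0.585 and 0.996 FPKM.

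**Figure D4:**
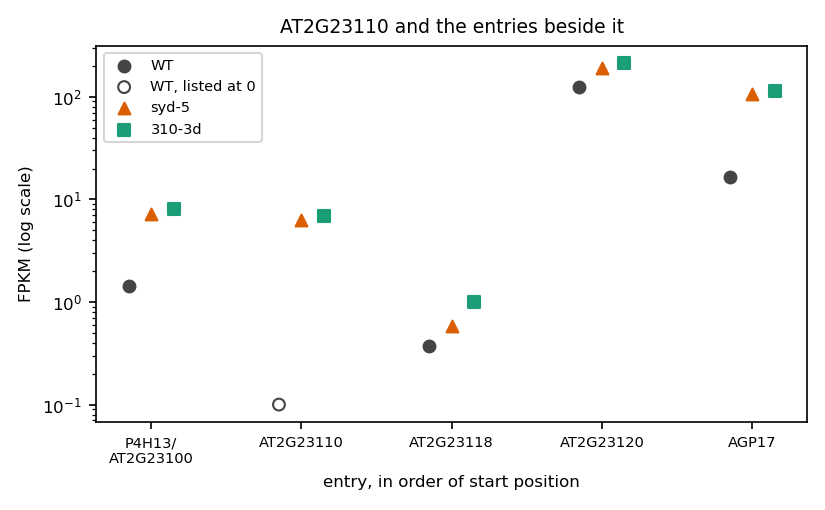
FPKM (log y axis) in WT, syd-5 and 310-3d of AT2G23110 and the entries beside it on chromosome 2, in order of start position; the open circle marks AT2G23110, listed at 0 in WT. In every entry both mutant values are above WT, and AT2G23118 is the 1 entry that was not called.

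Some other members flanked a paralogue that was called higher, and some did not. Beside SBT3.3 the merged entry of SBT3.5 and AT1G32950, also subtilase genes, went from 7.44 in WT to 14.7 in syd-5 and 14.4 FPKM in 310-3d (q = 0.000567 in both, authors' deposited table). Beside AT1G26390 its family member AT1G26380 went from 2.22 to 4.41 and 6.08 FPKM (q = 0.000567 in both, authors' deposited table). On the other side of these genes, AT1G32970 beside SBT3.3 stood at 0.00757, 0.151 and 0.137 FPKM, and AT1G26400 beside AT1G26390 at 0, 0.168 and 0 FPKM, and neither was tested. Beside RLP40, its paralogues RLP39 (0.0319, 1.03 and 0.589 FPKM) and RLP42 (3.28, 3.29 and 3.07 FPKM) were not called (q = 0.272 and 0.274, and 0.998 and 0.861, authors' deposited table). Beside TCH4 the xyloglucan endotransglucosylase gene XTH25 went from 0.567 to 8.15 and 10.1 FPKM (q = 0.000567 in both, authors' deposited table), which left it just outside the WT limit. In the same run XTH12 and XTH13 stood at 21.7 and 14.9 FPKM in WT, 26.9 and 18.1 in syd-5 and 23.9 and 16.03 in 310-3d, and were not called. On the other side of TCH4, AT5G57565 went from 7.39 to 12.8 and 18.7 FPKM (q = 0.000567 in both, authors' deposited table). Beside AT3G02242 the peptide gene RGF7 went from 4.52 to 10.9 and 8.70 FPKM (q = 0.00494 and 0.0434, authors' deposited table). Beside HSP17.6A the small heat shock protein gene HSP17.6II went from 0.759 to 9.29 and 2.02 FPKM. It was called higher in syd-5 (q = 0.000567) but not in 310-3d (q = 0.0633) in the authors' deposited table. The small heat shock protein gene AT2G29500, which flanks GSTU3 and is no paralogue of it, went from 8.84 to 32.7 and 16.6 FPKM (q = 0.000567 in both, authors' deposited table).

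The limits of the rule separate loci of nearly equal values. Just inside the WT limit lay SBT3.3, MYB47 and the weaker TCH4 entry, at 0.492, 0.481 and 0.473 FPKM. Just outside lay DIN2, AT5G02170 and the merged entry of AT5G05420 and AT5G05430, at 0.509, 0.513 and 0.518 FPKM in WT. DIN2, a dark-inducible beta-glucosidase gene, reached 2.37 FPKM in syd-5 and 10.4 in 310-3d. The lowest mutant values inside were 2.299 FPKM (AT5G12280), 2.34 (SBT3.3) and 2.34 (MYB47), and the highest outside were 1.97 (CEP1, in syd-5), 1.96 (AT4G33145, in 310-3d) and 1.93 (AT4G20210, in 310-3d).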

How the data were processed

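Per the submitters' processing notes, the reads were processed on TAIR10 with Cufflinks 2.1.1, TopHat2 2.1.1 and Cuffdiff 2.1.1; neither settings nor strandedness is given. The authors deposited FPKM values, pooled over the replicates of a condition. Each mutant condition was compared with WT by the authors, who deposited a test score, a p-value and a q-value. No replicate values are in the table used here, so the model planned on replicate values could not be fitted and no further test was run; the authors' q under 0.05 gave the calls, which rest on the spread between samples labelled as biological replicates. Locus starts were raised by 1. RefSeq names come from the TAIR10.1 gene table by locus tag (30 of 30 names matched); it holds no product text, so classes were read from names and gene types. The members and gene lists were chosen with earlier results of these data known. Log2 fold changes used a pseudocount of 1 FPKM; other log2 ratios had none. Every member is named, with genes chosen by level, by list, by flank and by nearness to a limit. Promoter and protein sequences were not used here. Values were computed with Python 3.11.15, pandas 2.3.3 and scipy 1.17.1. Alternatives were other limits, loci with 1 gene name, quantile normalization, tested loci, q under 0.01, other zones and a pseudocount of 0.1. Leaving out entries that share a span was added after the data were seen.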

Additional observations from a re-analysis of the deposited data

How the results depend on the processing

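The size of the set depends on its limits. There were 30 loci (16 called in both comparisons), but 12 (4 called) with WT under 0.25 FPKM, 120 (85 called) with WT under 1 FPKM, 126 (62 called) with mutants at 1 FPKM or more, and 7 (4 called) with mutants at 5 FPKM or more. It was 28 with 1 gene name, 22 (11 called) after quantile normalization, 29 over tested loci and 21 (14 called) over loci that share no span. With q under 0.01 it kept 13 calls. The pericentromeric share, 3.33%, was 0 with mutants at 5 FPKM or more. It rose to 8.33% with WT under 0.25 or under 1 FPKM, and to 8.73% with mutants at 1 FPKM or more. With a zone of 4 Mb it was higher still, and under the other alternatives it was 3.33 to 4.76%. All but the share of 0 lay inside the 95% interval. That interval is wide because the share rests on 1 locus, so staying inside it does not show that the share is stable. The median log2 fold changes of the set, 2.06 in syd-5 and 1.92 in 310-3d, became 3.37 and 3.29 with a pseudocount of 0.1, which by construction enlarges changes of low loci. Over loci with at least 1 FPKM the medians of all loci, 0, became 0.0099 and -0.0145. No members were neighbours, also with up to 10 kb between loci. No paired analysis was possible because the table holds no value per replicate; for the same reason no replicate could be left out. Depth is unknown, so a WT value near 0 cannot be given a floor.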

Other observations

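Loci near-silent in WT that reached 2 FPKM in syd-5 alone included a further heat shock gene, a dehydrin gene and a transcription factor gene. HSP23.6-MITO, a mitochondrial small heat shock protein gene, was listed at 0 in WT and stood at 2.61 FPKM in syd-5 and 1.31 in 310-3d (q = 0.000567 in both, authors' deposited table). XERO1, a dehydrin gene, stood at 0.160, 2.25 and 1.72 FPKM (q = 0.137 and 0.138, authors' deposited table), and ERF71, a transcription factor gene of the low-oxygen response, at 0.225, 2.26 and 1.24 FPKM (q = 0.0399 and 0.0958, authors' deposited table). CEP1, a cysteine protease gene, reached the limit in 310-3d alone, at 0.223, 1.97 and 3.55 FPKM (q = 0.00106 and 0.000567, authors' deposited table). These genes were chosen after their values were seen.

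In 5 of the 29 tested loci of the set the authors' deposited table gives exactly the same p in both comparisons, above the smallest p of the table. They include ABO3 and the unnamed locus on chromosome 1, although their mutant values differ. The same was so at 21 of 389 tested loci under 0.5 FPKM in WT (5.40%) and at 50 of all 19030 tested in both comparisons (0.263%).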
